A study of Mus musculus with 15 samples.

Results

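The 7 genes described here are those of ketone body use: Bdh1, Bdh2, Oxct1, Acat1, Aacs, Slc16a1 and Slc16a7. They were taken by symbol from a count table of 24015 genes, all 7 were found, and all 7 passed the filter on low counts, as did 15288 genes in total. The table holds inguinal white adipose tissue, a subcutaneous fat pad, of C57BL/6 mice, measured by polyA RNA sequencing in 15 libraries. All mice were kept for 2 weeks at thermoneutrality, a temperature at which a mouse needs no extra heat production, and were then injected intraperitoneally for 5 days. Mice of 2 months received vehicle (Young_Ctrl, n = 4) or CL (Young_CL, n = 4), and mice of 12 months received vehicle (Old_Ctrl, n = 3) or CL (Old_CL, n = 4). CL stands for cardiolipin in the labels, but a β-adrenergic agonist is commonly shortened to CL as well, so the compound stays unsettled and is called CL throughout. Replicate 2 of Old_Ctrl was not analysed here. No label states whether libraries came from different animals, and p-values therefore reflect only the spread between these samples.

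Ketone bodies are small acids that the liver makes from fatty acids and that other tissues take up and burn. Inside mitochondria, the BDH1 enzyme interconverts β-hydroxybutyrate and acetoacetate, OXCT1 (also called SCOT) joins acetoacetate to coenzyme A, and ACAT1 splits the product into acetyl-CoA. In the cytosol, AACS activates acetoacetate for lipid synthesis, a route known in fat tissue, and monocarboxylate transporters of the SLC16A family carry ketone bodies and lactate across membranes. BDH2 is a cytosolic relative of BDH1.

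Total counts per library ran from 6115542 to 51577001. Levels are CPM, counts relative to the library total after TMM scaling, which sets each library against the bulk of its genes. Differences are log2 changes from the quasi-likelihood test of edgeR, and a gene was called when its Benjamini-Hochberg adjusted p over the 15288 genes was under 0.05. Adipocyte markers were present in every library (Adipoq, 877 to 6090 CPM). Transcripts of other tissues varied. The summed level of 10 skeletal muscle markers ran from 31.6 to 6950 CPM, and Young_CL replicates 1, 2 and 3, Old_Ctrl replicate 3 and Old_CL replicate 3 were the 5 libraries rich in it. A fit without them holds 1 Young_CL library (replicate 4), which is then assumed to vary like the other groups. Young_Ctrl replicate 1 stood apart from its group. In bulk tissue, fewer cells of a type and less RNA per cell cannot be told apart.

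After CL in young mice, 5 of the 7 genes rose, where 21.7% of all tested genes did, and 1 fell, where 22.1% did. The genes that rose were Oxct1, Acat1, Aacs, Slc16a1 and Slc16a7, and the gene that fell was Bdh1. In aged mice the same 5 genes rose (23.1% of all tested genes) and Bdh1 and Bdh2 fell (22.2%). The median log2 change of the 7 genes was 0.89 in young and 0.98 in aged mice, against -0.07 and -0.01 over all tested genes. In bulk tissue, transcripts of the first mitochondrial enzyme went down, and those of the enzymes after it went up. The Bdh1 calls were lost at both ages with the T cell or adipocyte marker list mean as a covariate. In aged mice the T cell covariate ended the calls of all 7 genes. Over the libraries, the Pearson r with the adipocyte list was -0.94 for Bdh1 and 0.87 for Oxct1. The part of cell types in this pattern was not tested.

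**Figure D1:**
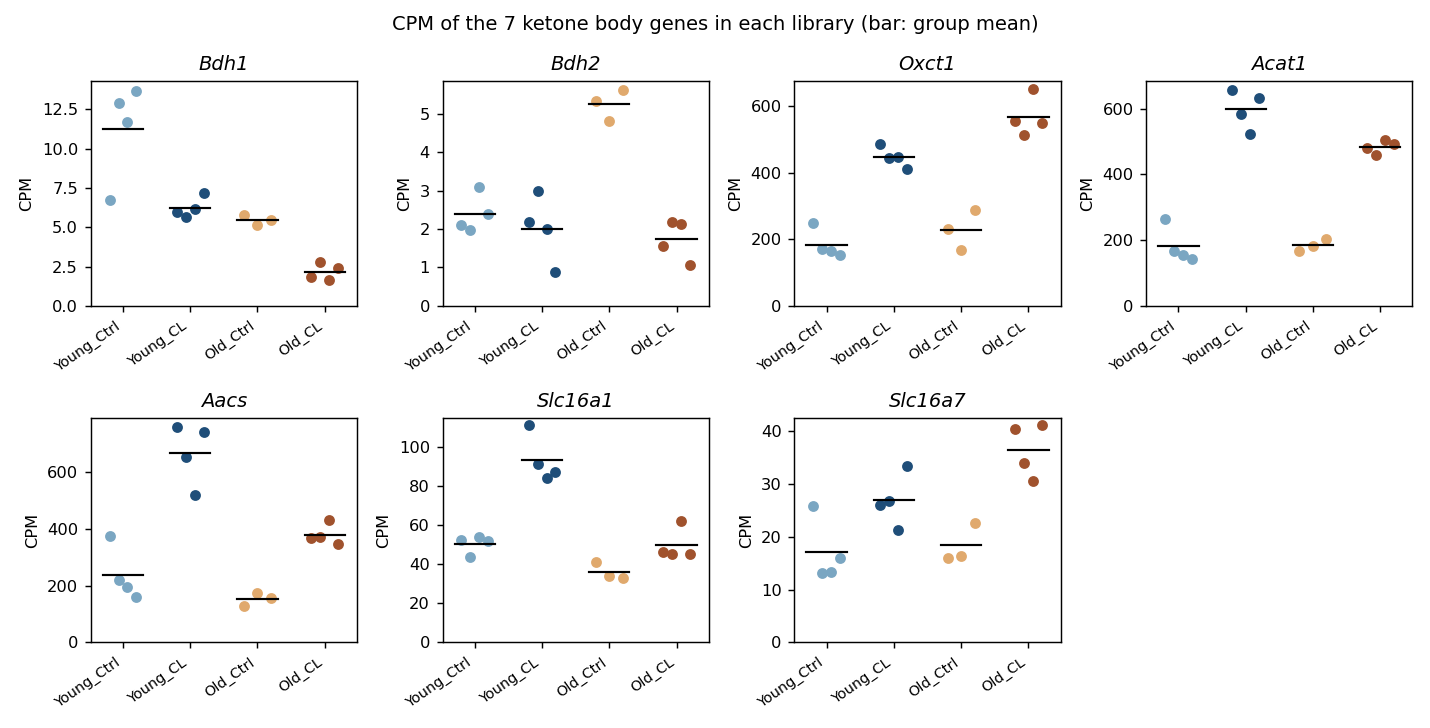
CPM of the 7 genes in each library (points) with the group mean (bar), on linear axes that start at 0. Bdh1 lies lowest in Old_CL (1.62 to 2.76 CPM), while Oxct1, Acat1 and Aacs are higher in every CL library than in any vehicle library of the same age.

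Bdh1 was a low transcript throughout. Its counts were 6.71, 12.9, 11.7 and 13.7 CPM in Young_Ctrl replicates 1 to 4, and 6, 5.62, 6.13 and 7.19 CPM in Young_CL replicates 1 to 4. They were 5.76, 5.12 and 5.48 CPM in Old_Ctrl replicates 1, 3 and 4, and 1.85, 2.76, 1.62 and 2.39 CPM in Old_CL replicates 1 to 4. The young groups overlapped, because Young_Ctrl replicate 1 lay below Young_CL replicate 4. The aged groups did not overlap, and all 4 Old_CL libraries lay below the other 11. The order of the group means was Young_Ctrl (11.3 ± 3.15, SD, n = 4), Young_CL (6.23 ± 0.671, SD, n = 4), Old_Ctrl (5.46 ± 0.319, SD, n = 3) and Old_CL (2.15 ± 0.516, SD, n = 4). Young_CL and Old_Ctrl, neighbours in that order, overlapped.

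With CL, Bdh1 fell by 0.87 on the log2 scale in young mice (SE 0.20, edgeR adjusted p = 0.00282) and by 1.35 in aged mice (SE 0.23, edgeR adjusted p = 0.000317). These are 1.83-fold and 2.54-fold lower levels. Without Young_Ctrl replicate 1 the young change was -1.04. With age, Bdh1 fell by 1.07 under vehicle (SE 0.22, edgeR adjusted p = 0.00372) and by 1.54 under CL (SE 0.22, edgeR adjusted p = 8.56e-05). The vehicle call was lost with marker list means as covariates: -0.55 with B cell and lymph node (edgeR adjusted p = 0.677), -0.42 with T cell (0.447) and -0.60 with adipocyte markers (0.143). The call under CL was lost with the T cell list, at -0.61 (edgeR adjusted p = 0.316). The CL change did not differ detectably between the ages: the interaction was -0.48 (95% interval -1.12 to 0.17, edgeR adjusted p = 0.332). Comparisons of age and of CL share libraries and are not independent of each other. Counting error alone was wide for this gene. The 26 counts of Old_CL replicate 1 have an exact 95% Poisson interval of 17 to 38.1 counts, which is 1.21 to 2.72 CPM.

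The reference lists 2 promoter windows for Bdh1, shown here because its bulk level fell with CL while Oxct1 and Acat1 rose. Each is the 250 bases before an annotated start in RefSeq on GRCm38.p6, 5′ to 3′, on the + strand. Window 1 is chr16:31422047-31422296 and window 2 is chr16:31428503-31428752.
Bdh1 window 1: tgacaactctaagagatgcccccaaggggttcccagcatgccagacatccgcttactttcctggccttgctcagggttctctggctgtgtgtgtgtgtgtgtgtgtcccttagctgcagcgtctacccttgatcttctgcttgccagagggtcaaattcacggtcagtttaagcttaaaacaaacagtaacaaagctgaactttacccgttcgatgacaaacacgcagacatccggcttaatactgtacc
Bdh1 window 2: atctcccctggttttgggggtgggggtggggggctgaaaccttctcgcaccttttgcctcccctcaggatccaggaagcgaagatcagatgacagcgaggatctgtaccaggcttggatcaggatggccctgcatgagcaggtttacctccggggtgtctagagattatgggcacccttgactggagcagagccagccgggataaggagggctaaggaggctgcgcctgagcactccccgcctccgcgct
Neither window holds, on either strand, any of 7 short motifs searched: the CCAAT box, the GC box GGGCGG, the E-box CACGTG, the ETS site CCGGAAG, the nuclear receptor site AGGTCA, the cyclic AMP response site TGACG or the TATA box TATAAA. In all 32851 promoter windows of this length, the share with a match was 33.8% for CCAAT, 32.7% for GGGCGG, 6.02% for CACGTG and 6.91% for CCGGAAG. It was 14% for AGGTCA, 17.8% for TGACG and 12.4% for TATAAA. A missing match says only that these letters are not in the window.

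The genes whose levels followed Bdh1 most closely over the 15 libraries were Lck (Pearson r = 0.98), Cd4 (0.978), Add3 (0.977), Prkcq (0.976) and Tbxa2r (0.976). They were chosen as the 5 of highest r among 10353 genes with a mean log2 CPM of at least 3. LCK and PRKCQ are kinases of T cell receptor signalling and CD4 is the co-receptor of helper T cells. All 5 genes fell with CL at both ages and with age in both treatments, by 0.49 to 1.27 on the log2 scale. They were chosen for following Bdh1, so a fall wherever Bdh1 fell was set by that choice and is no separate evidence. Since the 4 groups differ, much of each r lies between groups. The r of the deviations from group means was 0.744 to 0.798.

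The T cell marker list, of which Lck and Cd4 are members, moved with Bdh1. Of its 10 markers, 10 fell with CL at each age (22.1% of all tested genes in young and 22.2% in aged mice). With age, 8 fell under vehicle (12.2%) and 10 under CL (19.4%). The summed level was 656 to 1230 CPM in Young_Ctrl, 516 to 583 in Young_CL, 511 to 582 in Old_Ctrl and 167 to 267 in Old_CL, and none of the 10 was at 0 in a whole group. The r of the single markers with Bdh1 ran from 0.935 to 0.98, against a median of -0.187 over the 10353 genes. For the list mean it was 0.972 (Spearman rho 0.907), and 0.959 without Old_CL replicate 3 and Young_Ctrl replicate 4, the 2 libraries farthest from the median. The r of deviations from group means was 0.742. Other lists also moved with Bdh1 or against it: r was 0.91 for B cell and lymph node markers and -0.94 for adipocyte markers. It was -0.89 for erythrocyte, -0.79 for endothelial and -0.75 for hepatocyte markers. For deviations from group means it was 0.47 (B cell and lymph node), -0.69 (adipocyte), -0.17 (erythrocyte), -0.46 (endothelial) and -0.42 (hepatocyte). Markers of thermogenic (heat-producing) adipocytes had -0.32 over the libraries and -0.71 for the deviations.

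Bdh1 was next set against Oxct1 and against the T cell markers within each library, where library scaling plays no part. Per 1000 counts of Oxct1, the next enzyme, there were 26.9, 75.9, 71 and 89.3 counts of Bdh1 in Young_Ctrl replicates 1 to 4, and 12.3, 12.6, 13.8 and 17.4 in Young_CL replicates 1 to 4. There were 25.1, 30.3 and 19.1 in Old_Ctrl replicates 1, 3 and 4, and 3.33, 5.37, 2.48 and 4.33 in Old_CL replicates 1 to 4. Every CL library lay below every vehicle library of its age. Oxct1 itself was higher with CL, by 1.28 in young and 1.31 in aged mice, so its rise alone lowers the ratio. In young mice Bdh1 by itself overlapped between the groups. The ratio therefore restates the changes of both genes and is no separate evidence on Bdh1. The mean log2 ratio was lower under CL by -2.11 in young mice (exact two-sided permutation p = 0.0286, adjusted over 2 comparisons p = 0.0571). In aged mice the difference was -2.71 (exact two-sided permutation p = 0.0571, adjusted p = 0.0571). These are the smallest p-values that the group sizes allow, so the adjusted test could not pass 0.05.

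Per 1000 summed counts of the 10 T cell markers, Bdh1 gave 10.2, 15.3, 10.7 and 11.2 counts in Young_Ctrl replicates 1 to 4, and 11.2, 10.9, 10.5 and 13.8 in Young_CL replicates 1 to 4. It gave 9.9, 8.86 and 10.7 in Old_Ctrl replicates 1, 3 and 4, and 7.16, 10.4, 9.7 and 8.94 in Old_CL replicates 1 to 4. CL and vehicle libraries overlapped at both ages. All 4 Old_CL ratios lay below all 4 Young_CL ratios, with a mean log2 ratio of -6.80 ± 0.233 (SD, n = 4) against -6.44 ± 0.175 (SD, n = 4), a difference that was not tested. Over all 15 libraries this ratio varied 2.14-fold, while Bdh1 itself varied 8.5-fold and the T cell sum 7.36-fold. The CL difference in the log2 ratio was -0.02 in young mice (exact permutation p = 0.8) and -0.13 in aged mice (exact permutation p = 0.457). This denominator was chosen after the data were seen, when its list was known to move with Bdh1. A small CL difference in the ratio was favoured by that choice, so these p-values are no separate evidence.

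With the T cell list mean as a covariate, also added after the data were seen, the Bdh1 change with CL was -0.20 in young mice (SE 0.26, edgeR adjusted p = 0.695) and -0.39 in aged mice (SE 0.35, edgeR adjusted p = 0.551). The covariate is itself tied to the groups, and with it only 224 genes in all were called in aged mice, none of the 7 among them. With the adipocyte list mean in its place the values were -0.37 (edgeR adjusted p = 0.318) and -0.75 (edgeR adjusted p = 0.0984). Without the 5 muscle-rich libraries the young change was -0.68 (edgeR adjusted p = 0.202), a value that rests on 1 Young_CL library. Which cells the Bdh1 reads come from was not tested.

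**Figure D2:**
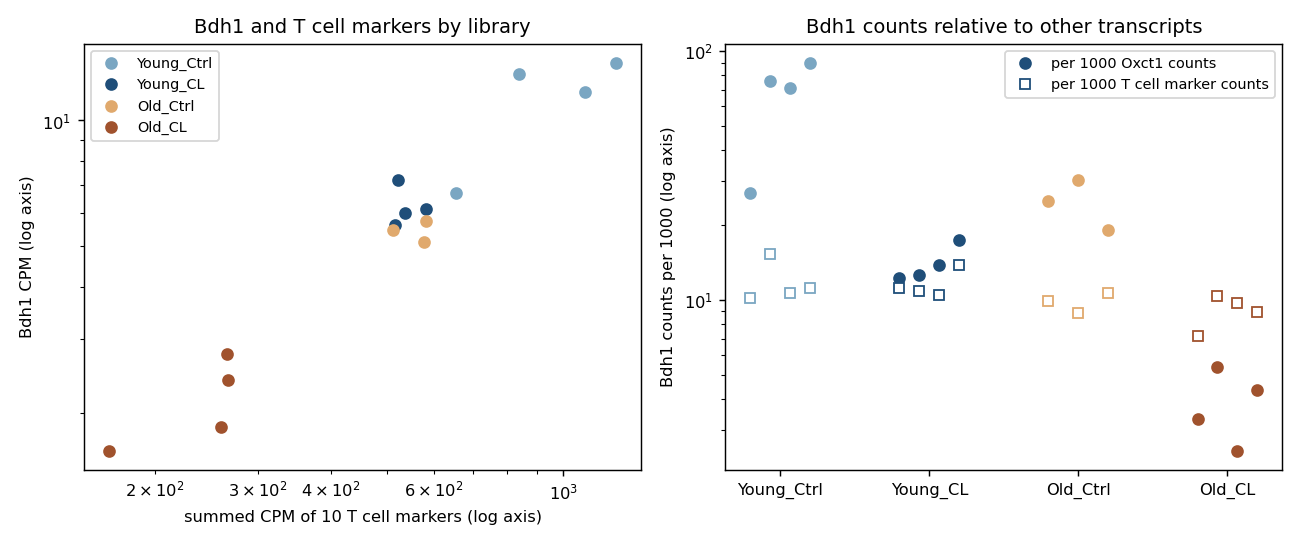
Left, Bdh1 CPM against the summed CPM of 10 T cell markers, 1 point per library, both axes log. Right, Bdh1 counts per 1000 Oxct1 counts (circles) and per 1000 T cell marker counts (open squares), log axis: the first falls to 2.48 to 5.37 in Old_CL, the second stays between 7.16 and 15.3 in all libraries.

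Bdh2, the cytosolic relative, followed another pattern. It stood at 2.1, 1.98, 3.09 and 2.39 CPM in Young_Ctrl replicates 1 to 4, and at 2.18, 2.99, 1.99 and 0.888 CPM in Young_CL replicates 1 to 4. It stood at 5.33, 4.82 and 5.62 CPM in Old_Ctrl replicates 1, 3 and 4, and at 1.57, 2.19, 2.14 and 1.06 CPM in Old_CL replicates 1 to 4. The 3 Old_Ctrl libraries lay above all others, and the remaining 3 groups overlapped. Bdh2 fell with CL in aged mice by 1.58 on the log2 scale (SE 0.30, edgeR adjusted p = 0.000813). Its change in young mice was -0.23 (95% interval -0.87 to 0.42, edgeR adjusted p = 0.566). The aged call was lost with the T cell (-1.62, edgeR adjusted p = 0.192) and adipocyte (-1.45, 0.0752) list means as covariates.

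With age under vehicle Bdh2 rose by 1.11 (SE 0.31, edgeR adjusted p = 0.0158), a 2.16-fold higher level, and without Old_Ctrl replicate 4 the adjusted p was 0.0646. Taking the list mean of B cell and lymph node, T cell or adipocyte markers as a covariate gave 0.58, 1.08 and 1.21, and the call was lost (edgeR adjusted p = 0.779, 0.283 and 0.111). Under CL the age difference was -0.23 (edgeR adjusted p = 0.563). The interaction was -1.35 (SE 0.43) and did not pass the test (edgeR adjusted p = 0.0692). It passed in DESeq2 (adjusted p = 0.03) and in edgeR without Young_CL replicate 4 (adjusted p = 0.00977), a library with only 11 counts of Bdh2. Progenitor and stromal markers moved alongside. With age under vehicle 6 of 10 were higher (15.1% of all tested genes), and with CL in aged mice 8 of 10 fell (22.2%). Their summed level was 4970 to 11600 CPM in Old_Ctrl and 2980 to 3300 in Old_CL, against 3910 to 5720 in Young_Ctrl and 2190 to 5710 in Young_CL, and none was at 0 in a whole group. Macrophage markers did so too: 8 of 10 were higher with age under vehicle and 7 of 10 fell with CL in aged mice. Their summed level was 2440 to 4730 CPM in Old_Ctrl and 1680 to 2520 in Old_CL, against 1650 to 2070 in Young_Ctrl and 949 to 2080 in Young_CL, and none was at 0 in a whole group. The r of Bdh2 over the 15 libraries was 0.90 with the stromal and 0.79 with the macrophage list, and 0.73 and 0.63 for deviations from group means. The part of these cells in the Bdh2 result was not tested.

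Oxct1 encodes the enzyme that commits acetoacetate to oxidation. Its level was 249, 170, 164 and 154 CPM in Young_Ctrl replicates 1 to 4, and 487, 445, 446 and 412 CPM in Young_CL replicates 1 to 4. It was 230, 169 and 287 CPM in Old_Ctrl replicates 1, 3 and 4, and 556, 513, 651 and 551 CPM in Old_CL replicates 1 to 4. CL and vehicle libraries did not overlap at either age. Oxct1 rose by 1.28 in young (SE 0.17, edgeR adjusted p = 2.79e-05) and by 1.31 in aged mice (SE 0.19, edgeR adjusted p = 8.9e-05). Age differences were 0.31 under vehicle and 0.34 under CL, and neither passed (edgeR adjusted p = 0.204 and 0.113). All Old_CL libraries lay above all Young_CL libraries. The vehicle difference passed in 1 of 20 alternatives, without Young_Ctrl replicate 1 (0.49, edgeR adjusted p = 0.0204), and changed sign in 3. The difference under CL passed in 1 of 22, with the 2 groups fitted alone (0.34, edgeR adjusted p = 0.00998), and changed sign in 3. In GENCODE M21, 1353 of the 3527 exon bases of Oxct1 overlap BC037032 on the other strand. BC037032 had 3.63% to 6.76% as many counts as Oxct1, and without a known strand setting reads from the shared bases cannot be told apart. The same holds for 533 of the 3648 exon bases of Bdh1, which overlap Gm15743 on the other strand, and for 179 of the 11509 of Slc16a7, which overlap Gm47862.

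Acat1, the thiolase of the last step, stood at 265, 167, 156 and 142 CPM in Young_Ctrl replicates 1 to 4, and at 658, 585, 522 and 631 CPM in Young_CL replicates 1 to 4. It stood at 167, 181 and 204 CPM in Old_Ctrl replicates 1, 3 and 4, and at 480, 459, 504 and 492 CPM in Old_CL replicates 1 to 4. All CL libraries lay above all vehicle libraries. Acat1 rose by 1.72 in young (SE 0.17, edgeR adjusted p = 1.06e-06) and 1.39 in aged mice (SE 0.18, edgeR adjusted p = 4.54e-05). The young value was the largest of the 7 genes in each alternative run, whereas in aged mice Oxct1 stood above Acat1 without Old_Ctrl replicate 4 (1.51 against 1.48) and Aacs did without replicate 3 (1.42 against 1.38). The age difference under vehicle was 0.015 (95% interval -0.35 to 0.38, edgeR adjusted p = 0.959). Under CL it was -0.31 (edgeR adjusted p = 0.138), although the Old_CL libraries lay below all Young_CL libraries. This difference under CL passed in 3 of 22 alternatives. They were the adipocyte covariate (-0.88, edgeR adjusted p = 0.000114), the T cell covariate (-1.06, 0.00975) and the 2 groups fitted alone (-0.32, 0.0106).

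Aacs, the cytosolic activating enzyme, stood at 376, 219, 195 and 161 CPM in Young_Ctrl replicates 1 to 4, and at 760, 654, 520 and 741 CPM in Young_CL replicates 1 to 4. It stood at 127, 175 and 156 CPM in Old_Ctrl replicates 1, 3 and 4, and at 368, 373, 431 and 346 CPM in Old_CL replicates 1 to 4. CL libraries lay above vehicle libraries at each age, and Old_CL lay wholly below Young_CL. Aacs rose by 1.49 in young (SE 0.22, edgeR adjusted p = 6.59e-05) and by 1.31 in aged mice (SE 0.24, edgeR adjusted p = 0.000514). Under CL it was lower with age by -0.82 (SE 0.21, edgeR adjusted p = 0.0068), and under vehicle the value was -0.64 (edgeR adjusted p = 0.0533). The call under CL was lost with the similar Old_CL libraries 1, 2 and 4 summed (-0.76, edgeR adjusted p = 0.0711) and without the muscle-rich libraries (-1.07, edgeR adjusted p = 0.0605, with 1 Young_CL library). The vehicle difference passed in 7 of 20 alternatives, among them DESeq2 (adjusted p = 0.0185) and limma-voom (adjusted p = 0.0405).

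Marker lists of adipocytes and thermogenic adipocytes, the heat-producing cells that appear in this depot on stimulation, rose with CL like Oxct1, Acat1 and Aacs. Of the 6 thermogenic markers, 6 rose with CL at each age (21.7% of all tested genes in young and 23.1% in aged mice). With age, 4 were lower under vehicle (12.2%) and 6 under CL (19.4%). Their summed level was 42.7 to 156 CPM in Young_Ctrl, 1200 to 1760 in Young_CL, 17.6 to 24.3 in Old_Ctrl and 249 to 354 in Old_CL, and none was at 0 in a whole group. Of the 6 adipocyte markers, 4 rose with CL in young and 6 in aged mice, and their sum reached 23600 to 27800 CPM in Young_CL and 33300 to 44500 in Old_CL, against 7320 to 19300 in Young_Ctrl and 16300 to 23900 in Old_Ctrl. With age the adipocyte markers went the other way from Aacs: 2 were higher under vehicle (15.1% of all tested genes) and 5 under CL (20.5%). At neither treatment was an adipocyte marker called lower with age. Over the 15 libraries the r of Aacs was 0.97 with the thermogenic list and 0.43 with the adipocyte list, and Acat1 had 0.94 and 0.69. Oxct1 had the reverse order, 0.78 and 0.87. For deviations from group means the r was 0.95 and 0.81 for Aacs, 0.97 and 0.92 for Acat1, and 0.64 and 0.82 for Oxct1. With the adipocyte list mean as a covariate, 4 of the 7 genes were still called higher with CL in young mice and 2 in aged mice. The aged Aacs call was lost there (0.52, edgeR adjusted p = 0.126). Whether these genes changed per adipocyte was not tested.

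Slc16a1 encodes the transporter MCT1. It stood at 52.5, 43.5, 53.7 and 51.7 CPM in Young_Ctrl replicates 1 to 4, and at 111, 91.3, 84.1 and 87.3 CPM in Young_CL replicates 1 to 4. It stood at 41.1, 33.9 and 32.8 CPM in Old_Ctrl replicates 1, 3 and 4, and at 46.4, 45.1, 62 and 45 CPM in Old_CL replicates 1 to 4. Groups did not overlap in any of the 4 comparisons. The Old_CL libraries (45 to 62 CPM) overlapped Young_Ctrl (43.5 to 53.7 CPM). Slc16a1 rose by 0.89 in young (SE 0.12, edgeR adjusted p = 4.49e-05) and by 0.48 in aged mice (SE 0.14, edgeR adjusted p = 0.00994). Without the 5 muscle-rich libraries the aged change was 0.31 (edgeR adjusted p = 0.0995), and its call was also lost with the B cell and lymph node (0.44), T cell (0.25) and adipocyte (0.47) list means as covariates. The interaction was -0.42 (95% interval -0.80 to -0.03 before adjustment, edgeR adjusted p = 0.16).

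With age, Slc16a1 fell by 0.50 under vehicle (SE 0.14, edgeR adjusted p = 0.0158) and by 0.91 under CL (SE 0.12, edgeR adjusted p = 6.42e-05). The vehicle call was lost without Old_Ctrl replicate 3 (adjusted p = 0.0507) and without replicate 4 (adjusted p = 0.0797), and with each of the same 3 covariates (adjusted p = 0.466, 0.0939 and 0.0858). Slc16a7 encodes MCT2 and stood at 25.9, 13.1, 13.4 and 16 CPM in Young_Ctrl replicates 1 to 4, and at 26.1, 26.9, 21.4 and 33.4 CPM in Young_CL replicates 1 to 4. It stood at 16.1, 16.4 and 22.7 CPM in Old_Ctrl replicates 1, 3 and 4, and at 40.4, 34, 30.6 and 41.2 CPM in Old_CL replicates 1 to 4. The young groups overlapped through Young_Ctrl replicate 1, and the aged groups did not. Slc16a7 rose by 0.68 in young (SE 0.20, edgeR adjusted p = 0.0131) and by 0.98 in aged mice (SE 0.22, edgeR adjusted p = 0.00212). The young call was lost with the B cell and lymph node (0.38, edgeR adjusted p = 0.414), T cell (0.38, 0.477) and adipocyte (0.27, 0.439) list means as covariates, and the aged call with the last 2 (0.53 and 0.43). The r of Slc16a7 over the 15 libraries was 0.86 with the adipocyte list and -0.81 with the T cell list, and the part of these cells was not tested. Neither age difference passed, at 0.14 under vehicle and 0.43 under CL (edgeR adjusted p = 0.67 and 0.0904).

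Promoter windows of 3 genes that rose together with CL are shown beside those of Bdh1, again the 250 bases before the start in RefSeq on GRCm38.p6, + strand. They are chr15:4026178-4026427 for Oxct1, chr5:125475623-125475872 for Aacs and chr3:104638414-104638663 for Slc16a1. Capitals mark the matches to the 7 motifs.
Oxct1: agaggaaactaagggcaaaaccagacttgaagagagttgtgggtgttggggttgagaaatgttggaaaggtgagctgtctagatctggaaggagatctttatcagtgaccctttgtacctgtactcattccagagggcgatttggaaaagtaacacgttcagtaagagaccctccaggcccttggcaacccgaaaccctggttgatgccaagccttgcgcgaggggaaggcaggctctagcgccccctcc
Aacs: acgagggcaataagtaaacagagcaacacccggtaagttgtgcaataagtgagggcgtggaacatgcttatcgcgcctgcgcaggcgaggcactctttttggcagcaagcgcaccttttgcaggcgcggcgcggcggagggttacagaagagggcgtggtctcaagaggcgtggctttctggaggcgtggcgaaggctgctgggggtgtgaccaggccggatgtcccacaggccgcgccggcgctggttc
Slc16a1: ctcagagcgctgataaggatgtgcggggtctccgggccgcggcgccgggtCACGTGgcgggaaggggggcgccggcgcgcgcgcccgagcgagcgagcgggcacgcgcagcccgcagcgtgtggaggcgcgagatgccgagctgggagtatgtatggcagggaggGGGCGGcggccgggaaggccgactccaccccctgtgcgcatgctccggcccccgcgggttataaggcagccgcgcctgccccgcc
The Slc16a1 window holds CACGTG with its first base 200 bases before the start and GGGCGG 85 bases before it. The windows of Oxct1 and Aacs hold none of the 7 motifs, and Bdh2 (window not shown) holds CCAAT 141 bases before its start. The GC content was 49.6% and 60.8% in the Bdh1 windows, 52% in Oxct1, 62.4% in Aacs and 76.4% in Slc16a1. A match is a description of the letters and no binding was measured. Windows were found for 5 of the 7 genes, Acat1 and Slc16a7 being the others.

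**Figure D3:**
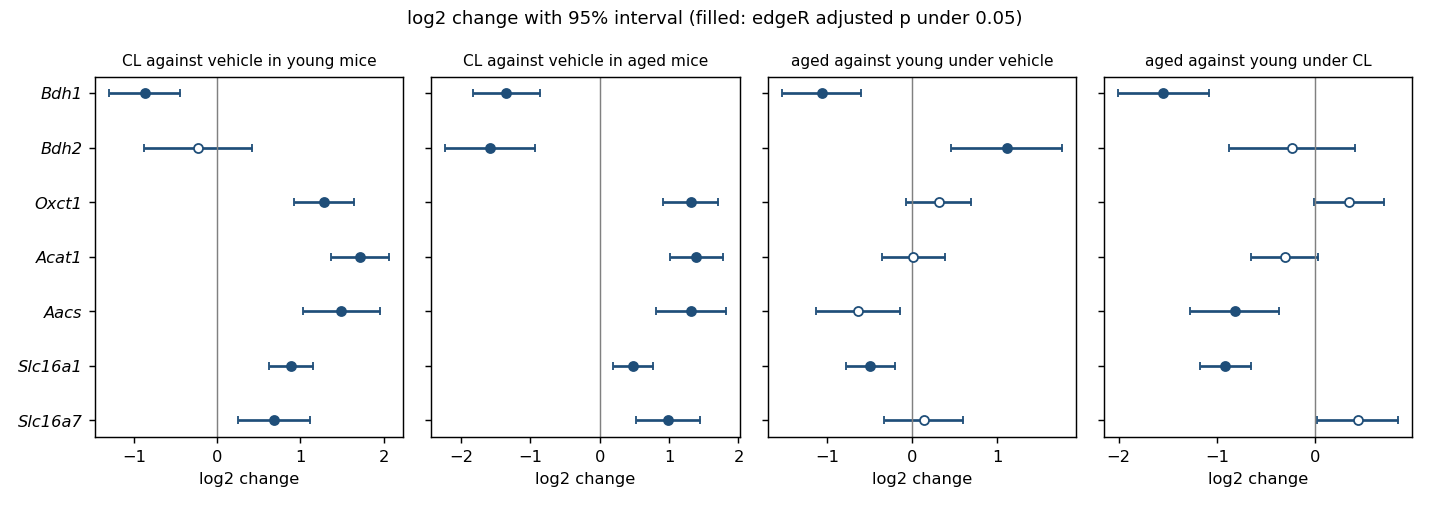
log2 change of the 7 genes with the 95% interval in the 4 pairwise comparisons; filled points have an edgeR adjusted p under 0.05. With CL, 5 genes lie above 0 at both ages and Bdh1 lies below it.

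Age moved fewer of the genes. Under vehicle 1 of 7 was higher in aged mice (Bdh2; 15.1% of all tested genes) and 2 were lower (Bdh1 and Slc16a1; 12.2%). Under CL none was higher (20.5% of all tested genes) and 3 were lower (Bdh1, Aacs and Slc16a1; 19.4%). The median log2 change was 0.015 under vehicle and -0.31 under CL, against 0.03 and -0.01 over all tested genes. No member passed the interaction in edgeR in either direction, where 3.31% of all tested genes were higher and 3.77% lower. At an unadjusted p under 0.05 the interaction had Bdh2 and Slc16a1. DESeq2 called 1 member for the interaction and limma-voom 0. For age under vehicle both called 4, with Aacs added to the lower genes. For a higher level with age under CL, Slc16a7 alone had an unadjusted p under 0.05, and DESeq2 and limma-voom called 0 members.

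Levels can be compared between genes only per length, here CPM per kilobase of GENCODE M21 exons. In Young_Ctrl, Aacs (73.5), Acat1 (53.5) and Oxct1 (52.2) stood highest, Slc16a1 was at 11.4, and Bdh1 (3.1), Bdh2 (2.04) and Slc16a7 (1.49) lowest. In Old_CL, Oxct1 (161), Acat1 (142) and Aacs (117) stood above Slc16a1 (11.2), Slc16a7 (3.18), Bdh2 (1.48) and Bdh1 (0.589). Bdh1 was in the fifth place of 7 in young vehicle tissue and the lowest of the 7 in aged CL tissue. It was also lowest, by little, in Young_CL (1.71, with Bdh2 at 1.72) and Old_Ctrl (1.5, with Slc16a7 at 1.6). Per kilobase of the longest transcript, Bdh1 (2.0) stood above Bdh2 (1.72) in Young_CL. In Old_Ctrl it then stood above Slc16a7, at 1.75 against 1.68.

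Another 14 genes listed for the pathway place these changes among transport, signalling and neighbouring enzymes, and 8 of them passed the filter. With CL, 5 of the 8 rose and 2 fell in young mice (21.7% and 22.1% of all tested genes). In aged mice 5 rose and 3 fell (23.1% and 22.2%). The median log2 changes were 0.99 and 0.77. With age 2 were higher and 1 lower under vehicle (15.1% and 12.2% of all tested genes). Under CL 1 was higher and 3 were lower (20.5% and 19.4%). With 8 genes, these age counts are too few to set apart from the shares. Hmgcll1, Oxct2a, Oxct2b, Ffar3 and Fgf21 were too low to test, and Hmgcs1 is listed at 0 in all 15 libraries. The annotation behind the counts is not given, so the 0 of Hmgcs1 may be an effect of it and is not read as absence.

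**Figure D4:**
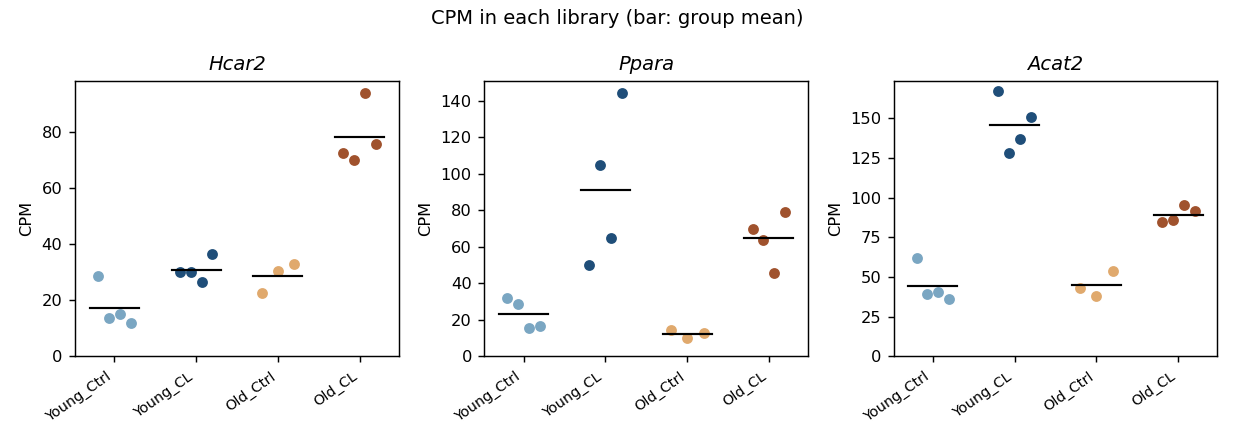
CPM of Hcar2, Ppara and Acat2 in each library (points) with the group mean (bar), linear axes from 0. Hcar2 is highest in Old_CL (70 to 94.2 CPM), and Acat2 is highest in Young_CL (128 to 167 CPM).

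Hcar2 encodes the adipocyte receptor through which β-hydroxybutyrate restrains lipolysis. It stood at 28.8, 13.7, 15.1 and 11.9 CPM in Young_Ctrl replicates 1 to 4, and at 30.1, 30.2, 26.7 and 36.7 CPM in Young_CL replicates 1 to 4. It stood at 22.6, 30.6 and 33.1 CPM in Old_Ctrl replicates 1, 3 and 4, and at 72.8, 70, 94.2 and 75.7 CPM in Old_CL replicates 1 to 4. The 4 Old_CL libraries lay above all others. Hcar2 rose with CL by 0.87 in young and 1.43 in aged mice (edgeR adjusted p = 0.00554 and 0.000281). It was higher with age by 0.78 under vehicle and 1.33 under CL (edgeR adjusted p = 0.0248 and 0.000275), and the vehicle call was lost in 11 of 20 alternatives. With the adipocyte list mean as a covariate none of the 4 changes was called: they were 0.29 and 0.60 with CL and 0.26 and 0.57 with age (edgeR adjusted p = 0.3, 0.0887, 0.412 and 0.0697). The T cell list gave 0.14, 0.26, 0.0746 and 0.20, none called. The B cell and lymph node list ended the young CL call (0.49) and the age call under CL (0.83, edgeR adjusted p = 0.107), and the latter was also lost without the muscle-rich libraries (0.95, with 1 Young_CL library). The summed adipocyte markers given above were likewise highest in Old_CL, and their part in the Hcar2 result was not tested.

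Ppara, the nuclear receptor that drives genes of fatty acid oxidation, rose with CL by 1.99 in young and 2.39 in aged mice (edgeR adjusted p = 0.000293 and 0.00024). Its range was 15.6 to 32.1 CPM in Young_Ctrl, 49.8 to 144 in Young_CL, 10.2 to 14.7 in Old_Ctrl and 45.7 to 78.9 in Old_CL, so that no CL library overlapped a vehicle library. Acat2, the cytosolic thiolase, rose by 1.73 and 0.98 (edgeR adjusted p = 5.37e-07 and 0.000316). Its levels were 36.2 to 61.8 CPM in Young_Ctrl and 128 to 167 in Young_CL, and 38.2 to 53.9 CPM in Old_Ctrl and 84.6 to 95.4 in Old_CL, with no overlap at either age. Sirt3, a mitochondrial deacetylase, rose by 1.06 and 0.89. Bsg, the chaperone of MCT1, rose by 0.93 and 0.66, while Emb, the chaperone that partners MCT2, fell by 0.55 and 1.02. Slc16a6, a transporter of the same family, fell by 0.74 and 0.72. Each of these calls had an edgeR adjusted p of at most 0.00734. In young mice the Emb and Slc16a6 calls were each lost in 4 of 21 alternatives, with values of -0.12 and -0.24 under the T cell covariate. Under that covariate none of the calls of Ppara, Acat2, Sirt3, Bsg, Emb and Slc16a6 in aged mice remained, Sirt3 being at 0.0803 and Slc16a6 at 0.0013.

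Slc16a3, which encodes the lactate exporter MCT4 of glycolytic muscle, was the only gene of either list that passed the interaction, at -2.53 (SE 0.68, edgeR adjusted p = 0.0388). Its levels were 2.51 to 3.69 CPM in Young_Ctrl, 2.34 to 9.76 in Young_CL, 4.28 to 17.6 in Old_Ctrl and 2.17 to 5.93 in Old_CL, with the highest value of each of the last 3 groups in a muscle-rich library. Without the 5 muscle-rich libraries the interaction was -0.59 (edgeR adjusted p = 0.656), with 1 Young_CL library, the lowest of its group for this gene. The call was lost in 18 of 28 alternatives.

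**Figure D5:**
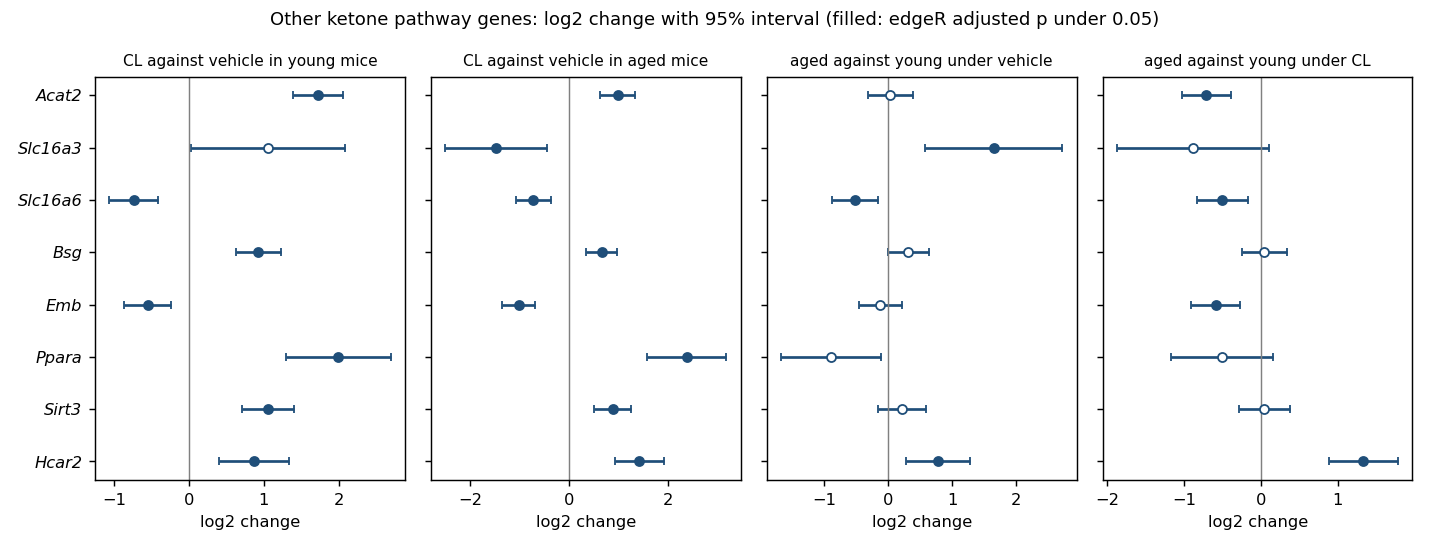
log2 change of the 8 tested other pathway genes with the 95% interval in the 4 pairwise comparisons; filled points have an edgeR adjusted p under 0.05. With CL, Acat2, Bsg, Ppara, Sirt3 and Hcar2 lie above 0 at both ages and Slc16a6 and Emb below it.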

How the data were processed

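PolyA RNA of mouse inguinal adipose tissue was extracted with Trizol and a PureLink kit and made into libraries with a TruSeq kit, per the labels' protocols. STAR was used with the mm9 genome, and counts per gene were made with featureCounts of Subread, per the submitters' processing notes; versions, annotation and strand setting are not given in the sources used here. The deposited values are raw gene counts for 24015 genes in 15 libraries. The members, gene lists, comparisons and alternatives were chosen with earlier results of these data known.

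From the counts, genes were kept with filterByExpr by group (15288), scaled by TMM and tested in edgeR 4.0.16 (R 4.3.3) by robust quasi-likelihood F test, with 1 mean per group and all 15 libraries in the fit. The p-values were adjusted by Benjamini-Hochberg over all tested genes. SE was derived from F, as the size of the log2 change divided by its root. List means use log2 CPM (prior count 2). Intervals on counts cover counting error only. The named genes are the 7 members, any gene of the other pathway list, and the 5 genes of highest Pearson r with Bdh1; marker lists are given as lists. Some genes of the pathway are not reported here. In lists, Adgre1 was read under its older symbol Emr1. Exact permutation p-values are the smaller tail doubled.

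The alternatives tried were DESeq2 1.42.0, limma-voom (limma 3.58.1), upper-quartile or RLE factors, no filter, a stricter filter (1 CPM or more in 3 libraries, mean count 10 or more), fits of only 2 groups, a replicate block, each library left out, Old_CL libraries 1, 2 and 4 summed, the muscle-rich libraries left out, and list means as covariates. Old_CL libraries 1, 2 and 4 were close to each other but differed beyond sampling noise (chi-square over degrees of freedom 2.65 to 4.9) and were kept as 3 samples. The procedure was tested on simulated data with known changes and the same spread for every gene. Of 100 changes of 2-fold it recovered 66 to 75 in the pairwise comparisons and 18 for the interaction. A missing interaction call therefore says little about differences of that size. Gene lengths, exon overlaps and promoter windows come from GENCODE M21 and RefSeq on GRCm38, another build than the counts, so only the windows carry coordinates.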

Additional observations from a re-analysis of the deposited data

Results flagged for a closer look

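In the 21 groups of 4 libraries checked (7 genes, 3 groups), 2 held a library whose gap to the others was large for the group's range; chance alone gives about 1 in 20. Oxct1 was at 249 CPM in Young_Ctrl replicate 1, against 154 to 170 in the other 3. Slc16a1 was at 62 CPM in Old_CL replicate 3, a muscle-rich library, against 45 to 46.4 in the other 3. Slc16a3 differed between the ages in its response to CL by an interaction of -2.53 on the log2 scale (edgeR adjusted p = 0.0388), a value that was -0.59 without the muscle-rich libraries, in a fit with 1 Young_CL library.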

How the results depend on the processing

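Over 784 alternative values of the 35 member changes, 694 kept direction and call, 36 lost the call, 20 gained it and 34 changed sign, the last all of changes not called in the reported fit. Bdh1 after CL stayed negative in every alternative run, between -1.04 and -0.20 in young and between -1.48 and -0.39 in aged mice. Its call in young mice was lost without the muscle-rich libraries (-0.68, from 1 Young_CL library) and with the B cell and lymph node (-0.53), T cell (-0.20) or adipocyte (-0.37) list mean as covariate. In aged mice it was lost with the T cell (-0.39) and adipocyte (-0.75) covariates. The T cell and adipocyte covariates were chosen after seeing the data, and all 3 are tied to the groups. Low counts of Bdh1 and Bdh2 limit their precision.

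Members called in aged CL went from 7 to 0 with the T cell and 2 with the adipocyte covariate. For age under vehicle they went from 3 to 0 (B cell and lymph node) and 1 (T cell), and without single libraries they were at least 1 (without Old_Ctrl replicate 4) and at most 4. For age under CL they were 6 with the 2 groups fitted alone, against 3. For the interaction they were 1 in DESeq2 and 1 with the T cell or adipocyte covariate, and 0 to 1 without single libraries (1 without Young_Ctrl replicate 1 or Young_CL replicate 4). The cause of these shifts was not tested.

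For age under vehicle, Acat1 was -0.0048 with RLE factors, -0.0039 in DESeq2, -0.016 with upper-quartile factors and -0.0065 without the muscle-rich libraries. With the B cell and lymph node, T cell and adipocyte covariates it was -0.4537, -0.4477 and -0.3697, the last called (edgeR adjusted p = 0.0496). Under the same 3 covariates Oxct1 was -0.39, -0.15 and -0.0867 and Slc16a7 was -0.35, -0.15 and -0.25. For age under CL they gave Oxct1 -0.24, -0.39 and -0.21, and the last 2 gave Slc16a7 -0.0089 and -0.0888. Without the muscle-rich libraries Bdh2 was 0.80 for age under CL, and the interaction was -0.10 for Oxct1 and -0.0219 for Slc16a7. The T cell and adipocyte covariates gave Oxct1 interactions of -0.24 and -0.12. Leaving out single libraries gave Acat1 -0.0888 to 0.249 and Slc16a7 -0.0497 to 0.38 for age under vehicle, Bdh2 -0.51 to 0.0067 for young CL and -0.47 to 0.0456 for age under CL, and Oxct1 -0.15 to 0.23 for the interaction.

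Among called genes of the other list, 6 values changed sign. With the T cell covariate Slc16a6 (0.0013) and Bsg (-0.054) did so for aged CL, and Slc16a6 (0.19) and Emb (0.0304) for age under CL. With the B cell and lymph node covariate Slc16a6 was 0.18 for age under vehicle and 0.057 under CL.

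Whether the replicate numbers pair the samples stayed unsettled: the correlation of deviations exceeded 0.1 in 6 of 21 same-numbered pairs (-0.347 to 0.343). Aged vehicle and CL pairs gave 0.043 to 0.332, and young ones -0.134 to 0.105. Such correlations in small groups cannot exclude pairing. With the replicate number as a block, members called were 6, 7, 3, 4 and 0 in the 5 comparisons, and the Bdh1 changes with CL were -0.84 and -1.40. The number of all genes called ranged over alternatives from 1751 to 7609 for young CL (6706 as reported), 224 to 7610 for aged CL (6916), 24 to 5850 for age under vehicle (4162), 1207 to 7269 for age under CL (6108) and 139 to 2489 for the interaction (1083, and 641 with the block). The Bdh1 to Oxct1 ratio kept its sign throughout, between -2.89 and -1.78 outside the T cell denominator.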
